A study of Mus musculus with 17 samples.

Results

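The interaction of the Fshr and Lhr genotypes is the amount by which the Fshr-CAM allele changed a gene in mouse ovaries without Lhr beyond what it changed with Lhr. It was computed per gene as a difference of differences on the log2 scale, Fshr-CAM/Lhr-/- minus WT/Lhr-/-, less Fshr-CAM/WT minus WT/WT. A positive value therefore means that Fshr-CAM raised the gene more, or lowered it less, where Lhr was missing. It rests on 15 of the 17 arrays of the series, 4 Fshr-CAM/Lhr-/-, 3 WT/Lhr-/-, 4 Fshr-CAM/WT and 4 WT/WT, where the part of each name before the stroke is the Fshr genotype and the part after it the Lhr genotype. Each array held labelled cRNA made from the total RNA of ovaries, taken at 12 weeks of age from females of a FVB/N x C57/BL6 cross, and all 4 genotypes share that strain, age and tissue. Fshr-CAM/Lhr-/- animals carry the Fshr allele and lack Lhr, WT/Lhr-/- animals only lack Lhr, Fshr-CAM/WT animals only carry the Fshr allele, and WT/WT animals are wild type at both genes. The mutation behind the abbreviation CAM, and any promoter or line behind either allele, are not given in the sources used here. The labels do not say that each array is a separate animal, so the p-values describe the spread between arrays, which may be technical.

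The follicle-stimulating hormone receptor, Fshr, sits on granulosa cells, where it raises cAMP and drives follicle growth, inhibin and activin production and estrogen synthesis. The luteinising hormone receptor, Lhr, acts through the same second messenger in theca cells, in large follicles and in the corpus luteum, and is needed for ovulation and for luteal progesterone synthesis. Because both receptors couple to cAMP, a gene can respond to either, and a cross of the 2 genotypes asks whether the Fshr-CAM allele acts differently when Lhr is missing.

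The arrays were chosen from measured values. The array titled WT/Lhr-/- 1 was left out because pituitary genes were high on it, with a mean log2 signal of 12.82 over 13 pituitary genes, against 4.47 to 4.60 on the other 16 arrays, all 17 being normalised together. In that normalisation Fshr (4.51) and the oocyte gene Zp3 (5.09) were not detected on this array, and both were detected on all others. The luteal gene Akr1c18 stood at 11.03 on it. The array titled Fshr-CAM/Lhr-/- 4 was left out because Fshr was low, at 9.73, while the other Fshr-CAM/Lhr-/- arrays had 11.49, 11.48, 11.74 and 11.44. Fshr stood at 9.16, 9.76 and 9.94 on the WT/Lhr-/- arrays, at 11.61, 11.50, 11.91 and 11.14 on Fshr-CAM/WT arrays, and at 8.68, 8.37, 9.18 and 9.0 on WT/WT arrays. All Fshr-CAM arrays that were kept therefore lay above all arrays with wild type Fshr, and as Fshr helped to choose the arrays it is given with no test. The array annotation names no Lhcgr probe, and the loss of Lhr was therefore not checked here. Cyp19a1, the aromatase, did not pass the detection filter. Between 20453 and 22006 probes per array were detected, and precision is set by the number of arrays.

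Of 12074 genes tested, 22 had a positive interaction (0.182%) and 45 a negative one (0.373%) at a Benjamini-Hochberg adjusted p under 0.05 in limma, together 0.555%, and 1148 passed an unadjusted p under 0.05. The median standard error of an interaction was 0.246 on the log2 scale, and 505 genes exceeded 1 in size. Of the 45 genes with a negative interaction, 19 belong to a list of motile cilia genes and are set apart below, which leaves 26 others. Spaca9, a sperm protein also linked to cilia, is on none of the lists set apart and is counted among the 26. Kndc1, Riiad1, Lrrc18 and the clone Gm7361, also among the 26, shared 2 traits with Spaca9 and the called cilia genes. Their WT/Lhr-/- arrays lay above all other arrays fitted, and the left-out Fshr-CAM/Lhr-/- 4 lay nearer to the other Fshr-CAM/Lhr-/- arrays. Whether the 26 still hold signal of cilia or sperm was not tested. WT/Lhr-/- had the lowest mean of the 4 genotypes for all 22 genes with a positive interaction, where it was lowest for 4293 of all genes tested. It had the highest mean for 42 of the 45 genes with a negative interaction, where it was highest for 3630 of all genes tested. These counts use the same values as the calls and are a description. In the plot of the 2 Fshr-CAM effects, most called genes lie far from zero along the axis without Lhr and near zero along the axis with Lhr.

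**Figure D1:**
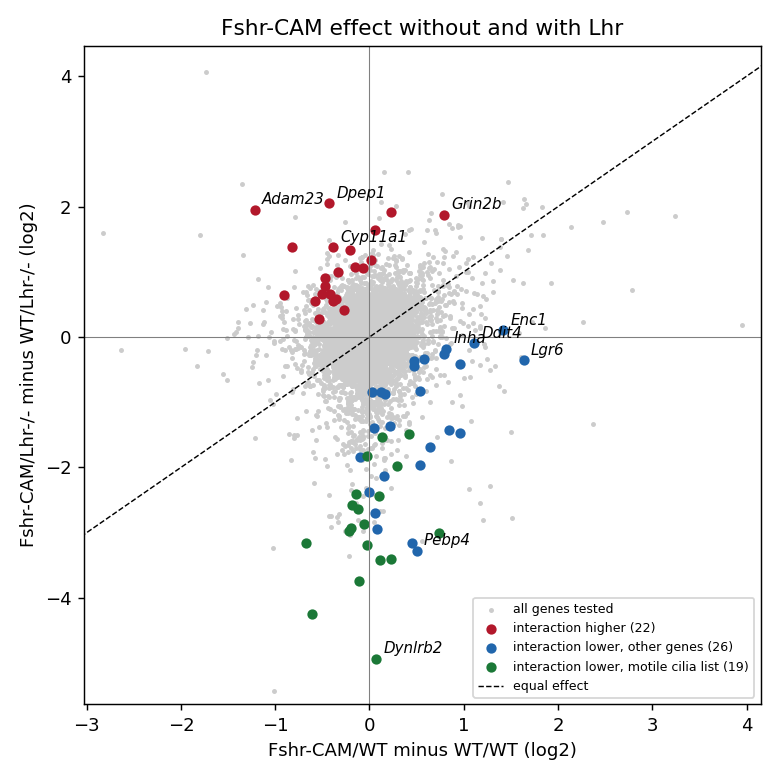
Log2 difference of Fshr-CAM/Lhr-/- minus WT/Lhr-/- (vertical axis) against Fshr-CAM/WT minus WT/WT (horizontal axis) for each of 12074 genes, with the dashed line marking equal effects. The 22 genes with a positive interaction lie above the line, and the 26 other and 19 motile cilia genes with a negative interaction lie below it, the cilia genes reaching −4.94 (Dynlrb2) on the vertical axis.

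More genes differed between the Fshr genotypes without Lhr than with it. Fshr-CAM/Lhr-/- differed from WT/Lhr-/- in 286 genes (2.37%), 147 higher and 139 lower, and Fshr-CAM/WT differed from WT/WT in 43 genes (0.356%), 38 higher and 5 lower (0.0414%). The motile cilia list held 46 of the 139 lower genes and 1 of the 147 higher ones. The sperm list held 4 of the lower genes and the adipocyte list 3. With cilia, oviduct, sperm and Y-linked genes left out, the 2 counts were 217 and 47. With Fshr-CAM/Lhr-/- 4 kept they were 85 and 25. The difference between the 2 effects is what the interaction tests, and it passed for the 67 genes above. Among the 22 genes with a positive interaction, 17 were higher in Fshr-CAM/Lhr-/- than in WT/Lhr-/- (1.22% of all genes), 1 of these was also higher in Fshr-CAM/WT than in WT/WT (0.315%), and 5 passed in neither. Among the 26 other genes with a negative interaction, 17 were lower in Fshr-CAM/Lhr-/- than in WT/Lhr-/- (1.15%), 6 were higher in Fshr-CAM/WT than in WT/WT, and 3 passed in neither. Loss of Lhr is read beside these values too: WT/Lhr-/- differed from WT/WT in 13.9% of genes, 6.49% higher and 7.42% lower, and Fshr-CAM/Lhr-/- from Fshr-CAM/WT in 1.62%, 0.207% higher and 1.41% lower. These shares come from contrasts that make up the interaction and are given as a description.

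The called genes fell into a few shapes over the 15 arrays, which were drawn up after the values were seen. Shapes and calls rest on the same values, so a high share among called genes follows in part from the calling. The shares are a description only. For 18 of the 22 genes with a positive interaction (81.8%), the 3 WT/Lhr-/- arrays lay below all other 12 arrays, where 3.16% of all genes did so. For 16 of the 26 other genes with a negative interaction (61.5%), the WT/Lhr-/- arrays lay above all others, where 3.64% of all genes did. For 8 of the 26 (30.8%) the 4 WT/WT arrays lay below all other 11 arrays, against 0.638% of all genes. Wfdc1 has both of these shapes and is counted in the 16 and in the 8. In these 8, Fshr-CAM alone, loss of Lhr alone and both together all gave higher values than WT/WT.

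Cyp11a1, an enzyme of steroid synthesis, and Alas1, an enzyme of heme synthesis, were among the 22 genes with a positive interaction. Cyp11a1, the mitochondrial enzyme that cuts the cholesterol side chain to start steroid synthesis, had log2 signals of 10.99, 11.26, 10.84 and 10.79 on Fshr-CAM/Lhr-/- arrays. It had 10.05, 9.82 and 8.92 on WT/Lhr-/- arrays. With Lhr present it had 12.33, 11.88, 11.66 and 11.75 on Fshr-CAM/WT arrays and 12.11, 12.60, 12.11 and 12.32 on WT/WT arrays. The 4 Fshr-CAM/Lhr-/- arrays lay between the WT/Lhr-/- arrays and all arrays with Lhr, with no overlap on either side. Cyp11a1 was 2.60-fold higher in Fshr-CAM/Lhr-/- than in WT/Lhr-/- (1.38 on the log2 scale, limma adjusted p = 0.00583), and its difference between Fshr-CAM/WT and WT/WT was −0.38 (adjusted p = 0.868). The interaction was 1.76 ± 0.32 (SE, adjusted p = 0.0242). The 3 Cyp11a1 probes gave 1.15 to 1.88, and 2 of them passed over all kept probes, the one at 1.15 not among them. In bulk RNA, fewer cells of a type and less RNA per cell cannot be told apart, for Cyp11a1 and for every gene below.

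**Figure D2:**
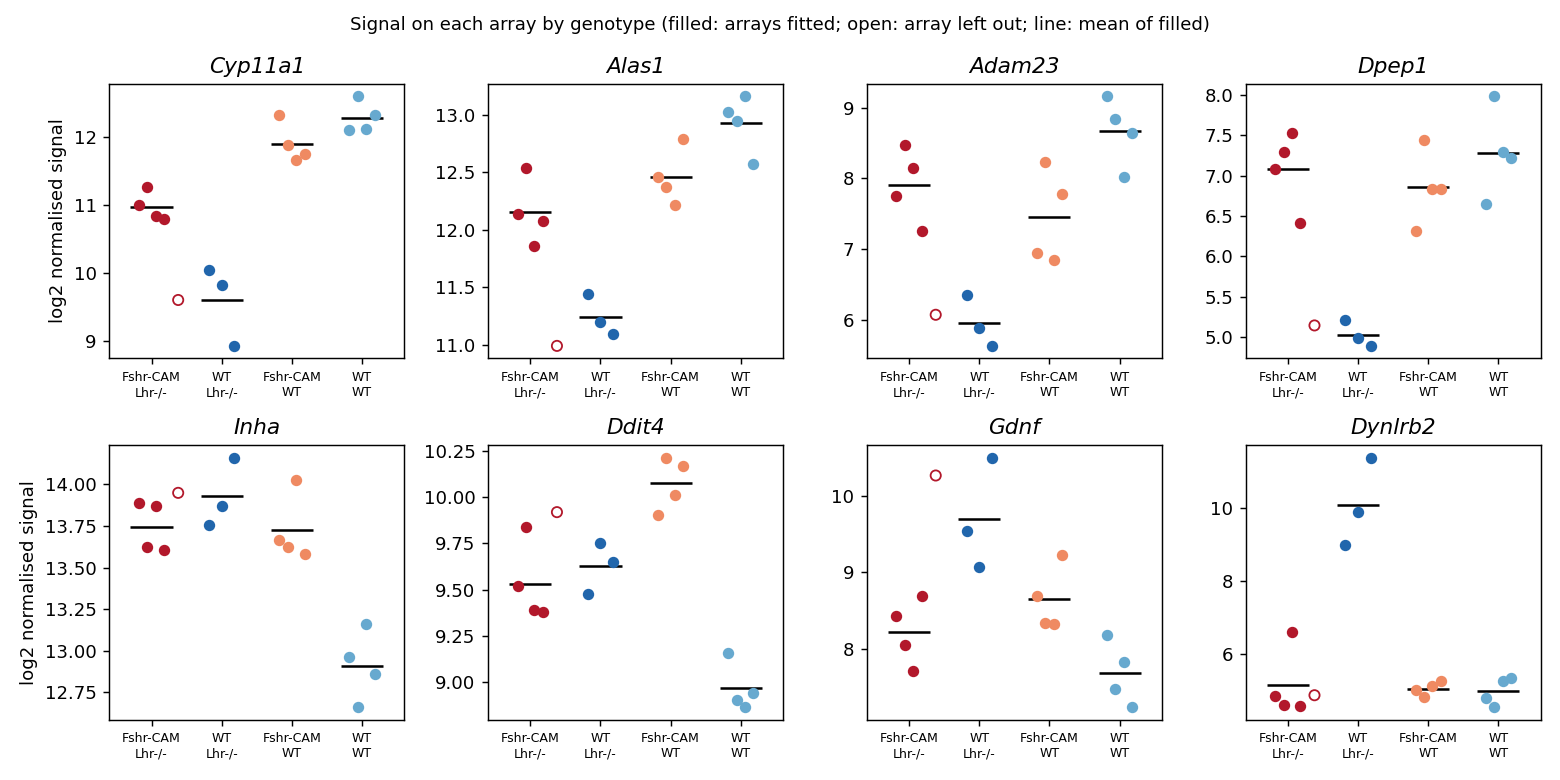
Log2 normalised signal of 8 genes on each array, with the genotypes in the order Fshr-CAM/Lhr-/-, WT/Lhr-/-, Fshr-CAM/WT and WT/WT. Filled points are the 15 arrays fitted, lines their means, and the open point is Fshr-CAM/Lhr-/- 4, normalised with the 15 others. Among the filled points, Cyp11a1, Alas1, Adam23 and Dpep1 were lowest on WT/Lhr-/- arrays, Inha and Ddit4 were lowest on WT/WT arrays, Dynlrb2 was highest on WT/Lhr-/- arrays, and Gdnf had its highest mean there. The open point lay nearer to the WT/Lhr-/- mean for all of these genes but Dynlrb2.

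The RefSeq promoter of Cyp11a1, from 250 bases before to 50 after the more downstream of its 2 annotated starts (GRCm38.p6), is printed because Cyp11a1 is the steroid synthesis gene with a called interaction. Capitals mark the letters AGGTCA, the core that nuclear receptors such as steroidogenic factor bind.
Cyp11a1, chr9:58014702-58015001, plus strand: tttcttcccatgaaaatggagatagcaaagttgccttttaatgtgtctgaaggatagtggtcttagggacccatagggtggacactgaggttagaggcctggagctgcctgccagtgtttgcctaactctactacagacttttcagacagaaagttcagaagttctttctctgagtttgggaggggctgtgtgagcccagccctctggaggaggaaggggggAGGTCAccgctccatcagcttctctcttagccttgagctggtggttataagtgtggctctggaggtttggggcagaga
The letters AGGTCA, read on both strands, occur in 16.3% of the 32851 RefSeq promoters of this length. They occur at a start of 1 of the 16 genes with a positive interaction that have a promoter in the table, Cyp11a1 itself, against 15.1% of the genes tested. Among the other genes with a negative interaction it was 3 of 18, and among the called motile cilia genes 2 of 14. The match is a description of these letters and does not show a site in use.

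Alas1, the rate-limiting enzyme of heme synthesis that serves the steroid cytochromes, had 12.14, 12.54, 11.86 and 12.08 on Fshr-CAM/Lhr-/- arrays and 11.45, 11.20 and 11.09 on WT/Lhr-/- arrays. It had 12.46, 12.37, 12.22 and 12.79 on Fshr-CAM/WT arrays, against 13.03, 12.94, 13.16 and 12.57 on WT/WT arrays. WT/Lhr-/- arrays were the lowest, and the Fshr-CAM/Lhr-/- arrays overlapped those of Fshr-CAM/WT. The interaction of Alas1 was 1.38 ± 0.24 (adjusted p = 0.0211), with a 1.88-fold higher level in Fshr-CAM/Lhr-/- than in WT/Lhr-/-. Mgarp, a mitochondrial protein abundant in steroid-making cells, was named after its values were seen. It followed the same order with an interaction of 0.94 ± 0.15 (adjusted p = 0.0121). Ch25h, an enzyme that hydroxylates cholesterol, had an interaction of 2.20 ± 0.44 (adjusted p = 0.0392). Its 4 Fshr-CAM/Lhr-/- arrays (6.34 to 7.00) lay above the 3 WT/Lhr-/- arrays (4.71 to 5.91, 1 of them at background), while Fshr-CAM/WT (5.75 to 7.01) and WT/WT (6.70 to 7.48) overlapped.

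Other steroid genes did not pass. Star, which carries cholesterol into mitochondria, had 6.39, 6.41, 6.03 and 6.07 on Fshr-CAM/Lhr-/- arrays and 6.05, 5.65 and 4.67 on WT/Lhr-/- arrays. It had 9.53, 9.75, 9.76 and 7.99 on Fshr-CAM/WT arrays and 10.20, 11.03, 10.31 and 9.77 on WT/WT arrays. Both genotypes without Lhr lay below both genotypes with it, and the interaction was 1.84 ± 0.57 (adjusted p = 0.252). Scarb1, the receptor that takes up cholesterol from lipoproteins, had an interaction of 1.67 ± 0.45 (adjusted p = 0.158), with 7.12 to 7.46 in Fshr-CAM/Lhr-/- and 5.96 to 6.19 in WT/Lhr-/-. Cyp17a1, the theca cell enzyme of androgen synthesis, ranged from 9.34 to 13.38 within WT/WT, and its interaction was 0.47 ± 0.99 (adjusted p = 0.933). Luteal genes were low without Lhr whichever Fshr allele was present. Akr1c18, which inactivates progesterone, had 4.54 to 5.03 in Fshr-CAM/Lhr-/- and 5.03 to 7.17 in WT/Lhr-/-, against 11.31 to 13.75 in Fshr-CAM/WT and 9.83 to 14.40 in WT/WT. Its interaction was −1.56 ± 1.26 (adjusted p = 0.748). Ptgfr, the prostaglandin F receptor of the corpus luteum, was at background on all arrays without Lhr, with an interaction of 0.42 ± 0.49 (adjusted p = 0.854). Of 12 measured genes of steroid hormone synthesis, 1 had a positive interaction (Cyp11a1) and 0 a negative one, with a median of 0.10, against 0.03 over all genes. Of 11 corpus luteum genes 0 passed (median 0.21), and of 20 genes of cholesterol synthesis and uptake 0 passed, with 18 above zero and a median of 0.43. Of all 12074 genes, 6531 were above zero and 5543 below it, and the sign counts of the lists are read beside these.

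The largest called positive interactions were of genes with other roles. Adam23, an inactive metalloprotease of the cell surface known for adhesion in the nervous system, had 7.76, 8.48, 8.15 and 7.26 on Fshr-CAM/Lhr-/- arrays and 6.36, 5.88 and 5.63 on WT/Lhr-/- arrays. It had 6.95, 8.23, 6.84 and 7.78 on Fshr-CAM/WT arrays and 9.16, 8.84, 8.02 and 8.65 on WT/WT arrays. Without Lhr the Fshr-CAM arrays were all higher, and with Lhr the Fshr-CAM arrays were mostly lower, with overlap. Its 2 effects were 1.95 without Lhr (adjusted p = 0.011) and −1.22 with Lhr (adjusted p = 0.275), and their difference was 3.17 ± 0.50 (adjusted p = 0.0121).

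Dpep1, a membrane dipeptidase, had 7.08, 7.29, 7.52 and 6.41 on Fshr-CAM/Lhr-/- arrays and 5.21, 4.98 and 4.89 on WT/Lhr-/- arrays. It had 6.31, 7.45, 6.83 and 6.84 on Fshr-CAM/WT arrays and 6.65, 7.99, 7.29 and 7.22 on WT/WT arrays. The 3 WT/Lhr-/- arrays stood apart, while the other genotypes overlapped. Dpep1 was 4.14-fold higher in Fshr-CAM/Lhr-/- than in WT/Lhr-/- (adjusted p = 0.00379), with an interaction of 2.48 ± 0.44 (adjusted p = 0.024). Pkdcc, a secreted tyrosine kinase, had the same shape. Its signals were 10.49, 10.96, 10.65 and 10.19 on Fshr-CAM/Lhr-/- arrays and 8.94, 9.24 and 8.61 on WT/Lhr-/- arrays. They were 9.57 to 10.34 in Fshr-CAM/WT and 9.46 to 10.41 in WT/WT, and the interaction was 1.59 ± 0.33 (adjusted p = 0.0457).

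Smarca1, the ATPase of an ISWI chromatin remodeller, had 11.71, 11.92, 11.76 and 11.69 on Fshr-CAM/Lhr-/- arrays and 10.72, 11.02 and 10.35 on WT/Lhr-/- arrays. The 8 arrays with Lhr ranged from 11.60 to 12.39 and overlapped those of Fshr-CAM/Lhr-/-. Its interaction was 1.23 ± 0.23 (adjusted p = 0.0325), and its level was 2.11-fold higher in Fshr-CAM/Lhr-/- than in WT/Lhr-/-. Rbfox3, a splicing factor known as a neuronal marker, had 6.74 to 7.29 in Fshr-CAM/Lhr-/- and 5.22 to 5.85 in WT/Lhr-/- (interaction 1.54 ± 0.31, adjusted p = 0.04). Gdpd5, a phosphodiesterase of glycerophospholipids, had 7.91 to 8.16 in Fshr-CAM/Lhr-/- and 7.04 to 7.07 in WT/Lhr-/- (1.33 ± 0.26, adjusted p = 0.0345). In all of these the WT/Lhr-/- arrays were lowest.

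Fam83g, a scaffold of BMP signalling, was graded over the genotypes. It had 7.54, 7.44, 7.32 and 7.40 on Fshr-CAM/Lhr-/- arrays and 6.79, 6.53 and 6.62 on WT/Lhr-/- arrays. It had 7.66, 8.13, 7.77 and 7.99 on Fshr-CAM/WT arrays and 8.24, 8.55, 8.21 and 8.40 on WT/WT arrays. No 2 genotypes overlapped, and Fshr-CAM arrays were higher without Lhr and lower with Lhr. The effect without Lhr was 0.78 (adjusted p = 0.00978), the effect with Lhr was −0.47 (adjusted p = 0.279), and the interaction was 1.25 ± 0.19 (adjusted p = 0.0111). Enox1, a cell surface oxidase of NADH, and Il15ra, a cytokine receptor subunit, had interactions of 1.55 ± 0.30 and 1.16 ± 0.23 (adjusted p = 0.0345 for both). For neither did the effect without Lhr pass (0.64, adjusted p = 0.142 for Enox1, and 0.66, adjusted p = 0.0521 for Il15ra). The 4 Il15ra probes gave interactions of 0.60 to 1.16, and 1 of them passed over all kept probes.

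Grin2b, an NMDA glutamate receptor subunit named after its values were seen, was the called gene with a positive interaction that Fshr-CAM also raised with Lhr present. It had 7.59, 7.46, 7.68 and 7.82 on Fshr-CAM/Lhr-/- arrays and 5.72, 5.75 and 5.80 on WT/Lhr-/- arrays. It had 7.50, 7.12, 7.36 and 6.82 on Fshr-CAM/WT arrays and 6.25, 6.59, 6.34 and 6.46 on WT/WT arrays. The Fshr-CAM arrays lay above those with wild type Fshr in both backgrounds. The effect was 1.88 without Lhr (3.67-fold, adjusted p = 6.55e-05) and 0.79 with Lhr (1.73-fold, adjusted p = 0.0432), and the interaction was 1.09 ± 0.23 (adjusted p = 0.0496).

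The 8 genes whose WT/WT arrays lay below all others included Inha, Ddit4, Lgr6 and Enc1. Inha, the alpha subunit of inhibin that granulosa cells make and the pituitary senses, had 13.89, 13.63, 13.87 and 13.60 on Fshr-CAM/Lhr-/- arrays and 13.75, 13.87 and 14.16 on WT/Lhr-/- arrays. It had 13.67, 13.63, 14.02 and 13.58 on Fshr-CAM/WT arrays and 12.96, 12.66, 13.16 and 12.86 on WT/WT arrays. The 3 mutant genotypes overlapped each other and lay above WT/WT. Inha was 1.76-fold higher in Fshr-CAM/WT than in WT/WT (0.81, adjusted p = 0.0111) and 2.02-fold higher in WT/Lhr-/- than in WT/WT (1.02, adjusted p = 0.000345), while Fshr-CAM/Lhr-/- and WT/Lhr-/- differed by −0.18 (adjusted p = 0.546). The interaction was −0.99 ± 0.19 (adjusted p = 0.0325, 95% interval −1.40 to −0.59). With WT/Lhr-/- 1 kept, the interaction of Inha was 0.29, so its sign depends on leaving that array out.

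The RefSeq window of Inha (GRCm38.p6) runs from 250 bases before to 50 after its 1 annotated start. It is printed beside the promoter of Cyp11a1 because the interactions of the 2 genes had opposite signs. Whether this start is used in ovary was not checked, and the bases may lie inside the gene. They are therefore not shown to be the Inha promoter. Capitals mark the letters AGGTCA.
Inha, chr1:75507359-75507658, plus strand: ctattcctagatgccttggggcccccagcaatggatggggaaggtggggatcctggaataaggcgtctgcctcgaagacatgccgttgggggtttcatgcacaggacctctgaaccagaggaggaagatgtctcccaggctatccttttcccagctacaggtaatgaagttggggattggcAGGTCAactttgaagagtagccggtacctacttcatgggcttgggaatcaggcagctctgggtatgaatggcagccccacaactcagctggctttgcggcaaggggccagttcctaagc

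Ddit4, an inhibitor of the growth kinase mTORC1 that is induced by stress, had 9.52, 9.84, 9.39 and 9.38 on Fshr-CAM/Lhr-/- arrays and 9.48, 9.76 and 9.65 on WT/Lhr-/- arrays. It had 9.90, 10.21, 10.01 and 10.17 on Fshr-CAM/WT arrays and 9.16, 8.90, 8.86 and 8.94 on WT/WT arrays. Fshr-CAM/WT was highest and WT/WT lowest, with both genotypes without Lhr between them. Fshr-CAM raised Ddit4 2.16-fold with Lhr (1.11, adjusted p = 0.000351), the difference without Lhr was −0.10 (adjusted p = 0.765), and the interaction was −1.20 ± 0.17 (adjusted p = 0.00671). Enc1, an actin-binding kelch protein named after its values were seen, had the same order. It had 9.78, 9.72, 9.74 and 9.86 on Fshr-CAM/Lhr-/- arrays and 9.72, 9.78 and 9.49 on WT/Lhr-/- arrays. It had 10.30 to 10.82 in Fshr-CAM/WT and 8.67 to 9.42 in WT/WT, a 2.68-fold difference (adjusted p = 0.00033), and its interaction was −1.31 ± 0.22 (adjusted p = 0.0163). Ddit4 and Enc1 were the 2 called genes whose Fshr-CAM/WT arrays lay above all other arrays, as 11 of all genes tested did.

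Lgr6, a receptor for R-spondins that strengthens Wnt signalling, had 6.72, 6.64, 6.77 and 6.72 on Fshr-CAM/Lhr-/- arrays and 7.37, 6.75 and 7.09 on WT/Lhr-/- arrays. It had 8.29, 7.40, 7.35 and 7.22 on Fshr-CAM/WT arrays and 5.95, 5.35, 6.05 and 6.38 on WT/WT arrays. WT/WT was lowest, and 1 Fshr-CAM/WT array stood above the rest of its group. The interaction was −1.99 ± 0.36 (adjusted p = 0.0269), with a 3.10-fold higher level in Fshr-CAM/WT than in WT/WT (adjusted p = 0.00754). Gata6, a granulosa and theca cell transcription factor named after its values were seen, had 11.18 to 11.54 in Fshr-CAM/Lhr-/- and 11.63 to 11.84 in WT/Lhr-/-. It had 11.57 to 11.76 in Fshr-CAM/WT and 10.99 to 11.21 in WT/WT, with an interaction of −0.91 ± 0.13 (adjusted p = 0.00586), and 1 Fshr-CAM/Lhr-/- array overlapped WT/WT. Fshr-CAM raised Gata6 1.49-fold with Lhr (adjusted p = 0.00754), and the difference without Lhr was −0.33 (adjusted p = 0.0811). On the left-out array WT/Lhr-/- 1, Gata6 stood at 6.32, far below the other WT/Lhr-/- arrays. As for Inha, the negative sign of the Gata6 interaction therefore depends on leaving that array out. The other genes with all WT/WT arrays lowest were Sema3c, a secreted guidance protein, Drp2, a relative of dystrophin, Tle4, a corepressor, and Wfdc1, a secreted protease inhibitor. Their interactions were −1.37, −1.05, −0.85 and −0.92 in that order, and they were named after their values were seen.

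Inhba, whose product forms activin and part of inhibin in granulosa cells, pointed the same way as Inha without passing. It had 13.70, 13.15, 13.38 and 13.40 on Fshr-CAM/Lhr-/- arrays and 12.21, 12.74 and 12.77 on WT/Lhr-/- arrays. It had 14.08, 13.09, 13.82 and 13.57 on Fshr-CAM/WT arrays and 11.56, 11.53, 11.83 and 11.94 on WT/WT arrays. Fshr-CAM arrays were higher in both backgrounds, by 0.84 without Lhr (adjusted p = 0.0502) and 1.92 with Lhr (adjusted p = 0.000288), and the interaction was −1.09 ± 0.28 (adjusted p = 0.143). Of 21 measured granulosa cell genes, 1 had a negative interaction (Inha) and 0 a positive one, with 16 below zero and a median of −0.38. Of 29 genes of the TGF beta family 1 passed, again Inha (median −0.08), and of 19 heat shock and stress genes 1 passed, Ddit4 (median −0.02). Of 27 genes of Fshr signalling and the cAMP machinery 0 passed (median 0.10), and of 21 cAMP response and immediate early genes 0 passed (median −0.28). These medians are read beside 0.03 over all genes.

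Other genes with a negative interaction had their highest mean in WT/Lhr-/-. Gdnf, a growth factor that signals through the Ret receptor, had 8.43, 8.06, 7.71 and 8.70 on Fshr-CAM/Lhr-/- arrays and 9.54, 9.06 and 10.50 on WT/Lhr-/- arrays. It had 8.70, 8.34, 8.33 and 9.23 on Fshr-CAM/WT arrays and 8.19, 7.48, 7.83 and 7.24 on WT/WT arrays. Fshr-CAM arrays were lower without Lhr and higher with Lhr, with no overlap in either background. The effect without Lhr was −1.48 (adjusted p = 0.0337), that with Lhr was 0.96 (adjusted p = 0.447), and the interaction was −2.44 ± 0.46 (adjusted p = 0.0325). Plac1, a membrane protein known from the placenta, had 5.89 to 6.19 in Fshr-CAM/Lhr-/- and 6.92 to 8.01 in WT/Lhr-/- (interaction −2.27 ± 0.39, adjusted p = 0.0211). Its level was 6.08 to 7.17 in Fshr-CAM/WT and 5.29 to 6.17 in WT/WT.

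Vtn, the matrix and plasma protein vitronectin, had 5.01, 5.23, 5.87 and 5.15 on Fshr-CAM/Lhr-/- arrays and 7.64, 6.76 and 6.60 on WT/Lhr-/- arrays. It lay between 4.48 and 6.01 on the 8 arrays with Lhr, 4 of them at background. Vtn was 3.22-fold lower in Fshr-CAM/Lhr-/- than in WT/Lhr-/- (−1.68, adjusted p = 0.00771), with an interaction of −2.33 ± 0.41 (adjusted p = 0.0226). Tafa4, a secreted protein related to chemokines, had 4.84, 5.29, 5.13 and 5.61 on Fshr-CAM/Lhr-/- arrays and 6.78, 7.41 and 7.35 on WT/Lhr-/- arrays. It was at background on all WT/WT arrays, so WT/Lhr-/- was at least 4.68-fold higher than WT/WT (adjusted p = 0.000141). The interaction of Tafa4 was −2.50 ± 0.40 (adjusted p = 0.014). Ccdc68, a protein of centrioles, had 7.47 to 8.11 in Fshr-CAM/Lhr-/- and 9.02 to 9.43 in WT/Lhr-/- (interaction −1.58 ± 0.28, adjusted p = 0.024). Pcsk6, a proprotein convertase named after its values were seen, had 9.84 to 10.06 in Fshr-CAM/Lhr-/- and 10.70 to 10.96 in WT/Lhr-/- (interaction −1.03 ± 0.20, adjusted p = 0.0345).

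Pebp4, a member of the phosphatidylethanolamine-binding family, was at background on all 4 Fshr-CAM/Lhr-/- arrays (4.66 to 4.88) and all 4 WT/WT arrays (4.46 to 4.79). It had 10.11, 6.76 and 7.26 on WT/Lhr-/- arrays and 5.64, 4.58, 5.06 and 5.27 on Fshr-CAM/WT arrays. The level in Fshr-CAM/Lhr-/- was therefore at least 8.40-fold lower than in WT/Lhr-/- (adjusted p = 0.00552), and 1 WT/Lhr-/- array was far above the other 2. The interaction was −3.78 ± 0.75 (adjusted p = 0.0373). Spaca9 was at background on all Fshr-CAM/Lhr-/- arrays and had 7.33, 6.74 and 7.95 on WT/Lhr-/- arrays. It was at least 5.16-fold lower in Fshr-CAM/Lhr-/- than in WT/Lhr-/- (adjusted p = 6.55e-05), with an interaction of −2.76 ± 0.33 (adjusted p = 0.0022). Spaca9 was detected on the 3 WT/Lhr-/- arrays and 1 WT/WT array alone. It thus met the filter of 4 arrays only through the group where it was high. Kndc1, Riiad1, Lrrc18 and Oscp1 had interactions of −3.03 ± 0.63, −2.29 ± 0.41, −1.74 ± 0.33 and −1.44 ± 0.30, with adjusted p of 0.0482, 0.0242, 0.0325 and 0.0474. In all of these the 3 WT/Lhr-/- arrays lay above the other 12. Lrrc18, like Spaca9, met the detection filter only through WT/Lhr-/-, being detected elsewhere on 1 Fshr-CAM/Lhr-/- array alone. Pebp4 and Gm7361 also met it only through WT/Lhr-/-, each being detected on fewer than 4 arrays of the other genotypes. Neither Lrrc18 nor Spaca9 was tested in the fits that left out a WT/Lhr-/- array.

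The genes set apart were those on the lists of motile cilia, oviduct and sperm genes. All 19 called genes among them come from the motile cilia list, of which 112 genes were measured, 103 with an interaction below zero (median −0.79). Dnaic1, 1 of the 19, was detected on the 3 WT/Lhr-/- arrays and 1 Fshr-CAM/WT array alone. It too met the detection filter only through WT/Lhr-/-. So did at least 1700024G13Rik, Pifo, Cfap299 and Ccdc39 among the 19, each detected on fewer than 4 arrays of the other genotypes. With no detection filter, 24 of 53 negative interactions were of genes set apart. Dynlrb2, a light chain of the dynein motor of cilia, had 4.85, 4.61, 6.62 and 4.58 on Fshr-CAM/Lhr-/- arrays and 9.01, 9.89 and 11.40 on WT/Lhr-/- arrays. It had 5.01, 4.84, 5.13 and 5.27 on Fshr-CAM/WT arrays and 4.79, 4.55, 5.27 and 5.34 on WT/WT arrays. It was near background on all but the WT/Lhr-/- arrays and Fshr-CAM/Lhr-/- 3. Its interaction was −5.01 ± 0.70 (adjusted p = 0.00586). Dnali1, an axonemal dynein chain, Rsph1, a radial spoke protein, and the unnamed clone 1700024G13Rik had interactions of −3.75 ± 0.51, −3.65 ± 0.74 and −3.63 ± 0.43 (adjusted p = 0.00586, 0.04 and 0.0022). A second probe of 1700024G13Rik gave −1.69 and did not pass over all kept probes (limma adjusted p = 0.285). Rsph1 passed in 3 of the 15 fits that each left out 1 array. For all 19 the WT/Lhr-/- arrays lay above the other 12, and for 11 of the 19 (57.9%) the highest of those 12 was Fshr-CAM/Lhr-/- 3, against 15% of all genes.

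Promoters of Dynlrb2 and Spaca9 (RefSeq, GRCm38.p6) are printed because both genes were high on all WT/Lhr-/- arrays. Capitals mark GTTGCC, letters that begin the X-box of the RFX factors, which switch on cilia genes.
Dynlrb2, chr8:116504765-116505064, plus strand: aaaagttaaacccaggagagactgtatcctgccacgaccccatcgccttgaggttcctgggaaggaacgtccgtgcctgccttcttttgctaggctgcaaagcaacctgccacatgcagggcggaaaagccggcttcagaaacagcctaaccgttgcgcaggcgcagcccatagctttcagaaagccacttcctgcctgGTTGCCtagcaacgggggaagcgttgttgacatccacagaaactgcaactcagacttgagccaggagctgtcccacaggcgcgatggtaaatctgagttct
Spaca9, chr2:28699602-28699901, minus strand: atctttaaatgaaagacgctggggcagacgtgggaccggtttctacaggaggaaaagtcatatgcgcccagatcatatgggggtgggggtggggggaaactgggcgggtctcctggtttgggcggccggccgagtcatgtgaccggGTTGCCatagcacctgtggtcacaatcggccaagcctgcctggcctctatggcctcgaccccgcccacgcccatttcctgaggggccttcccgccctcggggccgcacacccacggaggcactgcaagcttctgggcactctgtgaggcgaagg
GTTGCC, read on both strands, occurs in 12.5% of the 32851 promoters and at a start of 14.9% of the genes tested. It occurs at a start of 7 of the 14 called motile cilia genes that have a promoter in the table, of 3 of the 18 other genes with a negative interaction and of 2 of the 16 genes with a positive one. TGACG, letters of the cAMP response element, occurs in 20.8% of promoters, at a start of 7 of the 16 genes with a positive interaction, of 6 of the 14 called motile cilia genes and of 2 of the 18 other genes with a negative interaction, against 33.5% of the genes tested.

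Signal of other tissues differed between arrays. The mean log2 signal of the 112 motile cilia genes was 6.40 to 6.55 on Fshr-CAM/Lhr-/- arrays and 7.22 to 7.99 on WT/Lhr-/- arrays, against 6.25 to 6.42 on Fshr-CAM/WT and 6.30 to 6.42 on WT/WT arrays. The mean of 8 oviduct secretory genes was 6.36 to 7.67 in Fshr-CAM/Lhr-/- and 6.59 to 7.95 in WT/Lhr-/-, and at most 6.41 with Lhr, and 0 of the 8 had a called interaction. Normalised over all 17 arrays, the oviduct glycoprotein Ovgp1 had 10.46 on Fshr-CAM/Lhr-/- 3 and 11.30 and 13.33 on WT/Lhr-/- 3 and 4, but 6.77 on WT/Lhr-/- 2, within the 6.23 to 7.42 of arrays with Lhr. High Ovgp1 thus lay on WT/Lhr-/- 3 and 4 and on Fshr-CAM/Lhr-/- 3, and on no other array. The mean of 60 sperm genes was 6.01 to 6.13 in Fshr-CAM/Lhr-/- and 6.33 to 8.27 in WT/Lhr-/-, with the highest value on WT/Lhr-/- 2, where the sperm lactate dehydrogenase Ldhc stood at 13.30, and at most 6.29 with Lhr. Of these 60 genes 0 had a called interaction. Foxj1, the switch of motile cilia, stood at 6.23 on WT/Lhr-/- 4, at 4.78 and 4.90 on WT/Lhr-/- 2 and 3, and at most at 5.50 on the 16 arrays other than WT/Lhr-/- 4. Of 9 adipocyte genes 0 passed, led by Adipoq at −4.0 ± 0.85 (adjusted p = 0.0535), with a list mean of 6.96 to 7.66 in Fshr-CAM/Lhr-/- and 7.84 to 8.0 in WT/Lhr-/-, against 7.52 to 7.84 in Fshr-CAM/WT and 7.11 to 7.68 in WT/WT. Of these 4 lists, only motile cilia held called genes. The part of oviduct, sperm and fat tissue in the interactions above was not tested.

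**Figure D3:**
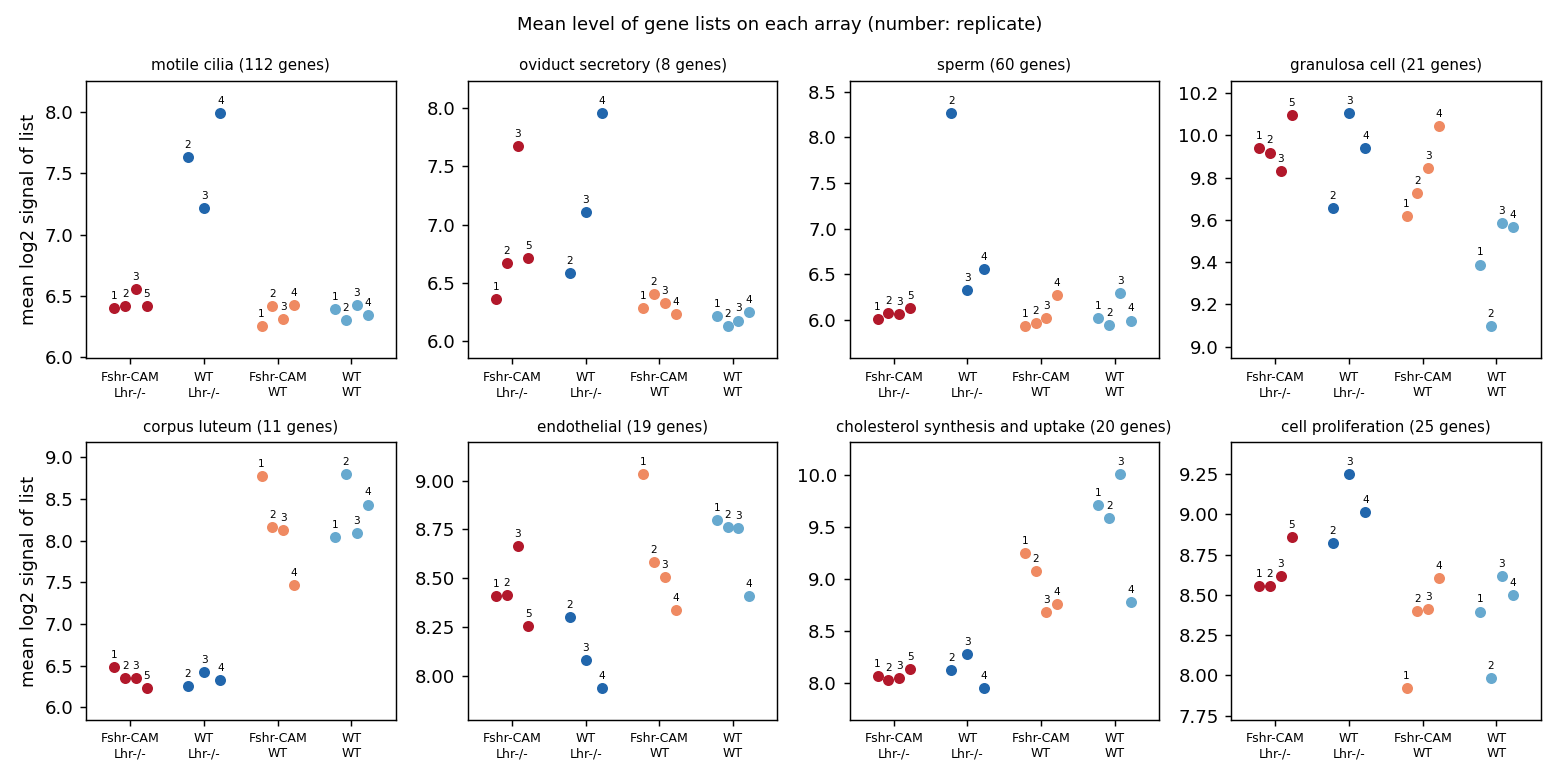
Mean log2 signal of 8 gene lists on each of the 15 arrays, by genotype, with the replicate number above each point. Motile cilia genes were higher on all 3 WT/Lhr-/- arrays (7.22 to 7.99) than on the other 12, sperm genes reached 8.27 on WT/Lhr-/- 2, and corpus luteum genes were at 6.48 or below on all arrays without Lhr and at 7.46 or above on all arrays with it.

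The array titled Fshr-CAM/Lhr-/- 4 was not used to call these genes, so its values can be set beside them. For 20 of the 22 genes with a positive interaction (90.9%) it lay nearer to the mean of the WT/Lhr-/- arrays than to the mean of the other Fshr-CAM/Lhr-/- arrays. The same held for 20 of the 26 other genes with a negative interaction (76.9%), and for 0 of the 19 called motile cilia genes. Over all genes tested it held for 6969 (57.7%), over the 1573 genes whose 2 means differed by more than 0.5 it held for 65.5%, and over all 112 measured motile cilia genes for 24.1%. Cyp11a1 stood at 9.60 on this array, Adam23 at 6.07, Dpep1 at 5.14, Grin2b at 5.90, Gdnf at 10.26 and Pcsk6 at 11.11, all near the WT/Lhr-/- values. Dynlrb2 stood at 4.88, Dnali1 at 5.40 and Spaca9 at 4.61, all near the other Fshr-CAM/Lhr-/- values. The 19 called cilia genes, 6 of the 26 other genes with a negative interaction, Enc1, Kndc1, Riiad1, Lrrc18 and Spaca9 among them, and 2 of the 22 with a positive one thus lay nearer to the other Fshr-CAM/Lhr-/- arrays. The genes were chosen on the interaction, of which the gap between the 2 means is a part. That gap was small for some, −0.10 for Ddit4, 0.11 for Enc1 and −0.18 for Inha, where nearness to either mean says little. The called sets were not held to a gap over 0.5, unlike the 1573 genes. The comparison is a description with no test. Nothing in the labels marks this array, and whether it carries its labelled genotype was not tested.

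**Figure D4:**
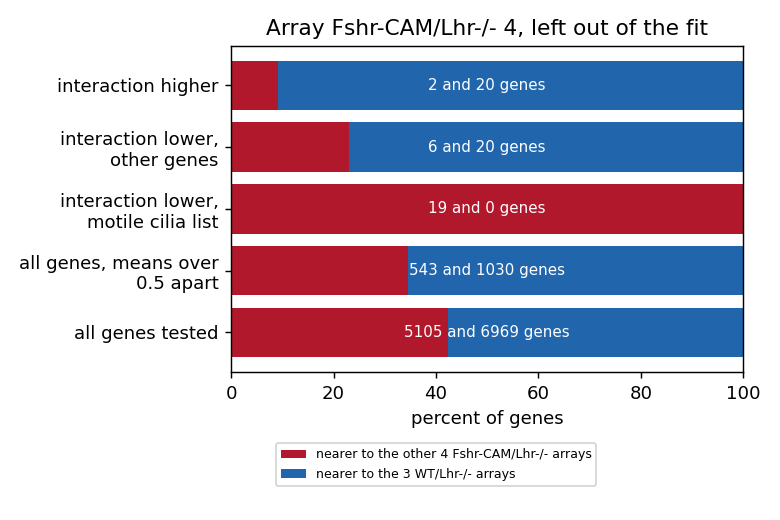
Share of genes for which the array titled Fshr-CAM/Lhr-/- 4 lay nearer to the mean of the other Fshr-CAM/Lhr-/- arrays (left segment) or of the WT/Lhr-/- arrays (right segment), in percent of each set. It lay nearer to WT/Lhr-/- for 90.9% of genes with a positive interaction and for 76.9% of the other genes with a negative one, for 0% of called motile cilia genes, for 65.5% of genes whose 2 means differed by more than 0.5 and for 57.7% of all genes tested.

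Gene lists beyond those above held no called interaction. Of 19 endothelial genes 17 were above zero (median 0.42), and of 25 cell proliferation genes 24 were below zero (median −0.33), with 0 past the threshold in either list. The endothelial list mean was 8.25 to 8.66 in Fshr-CAM/Lhr-/- and 7.94 to 8.30 in WT/Lhr-/-. The proliferation list mean was 8.55 to 8.86 in Fshr-CAM/Lhr-/- and 8.82 to 9.25 in WT/Lhr-/-. The 2 genotypes without Lhr overlapped in both lists. Of 17 genes of ovulation and cumulus expansion 0 passed (median 0.26), led by Adcyap1, which encodes the neuropeptide PACAP. Adcyap1 was at background on all Fshr-CAM/Lhr-/- and Fshr-CAM/WT arrays, had 5.23, 4.47 and 4.43 on WT/Lhr-/- arrays, and 8.15, 6.89, 5.68 and 8.33 on WT/WT arrays. It was high only on WT/WT arrays among these 15, at least 4.96-fold lower in Fshr-CAM/WT (adjusted p = 0.0117), and its interaction was 2.45 ± 0.63 (adjusted p = 0.143). Of 14 theca and interstitial genes, 32 oocyte genes, 24 Wnt pathway genes and 18 macrophage genes, 0 passed, with medians of 0.01, 0.05, 0.06 and 0.09.

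The counts depended on which arrays entered. With Fshr-CAM/Lhr-/- 4 kept, 0 genes had a positive interaction and 24 a negative one, 17 of them set apart, and with all 17 arrays there were 0 and 13. With WT/Lhr-/- 1 kept there were 2 and 16. Leaving out each of the 15 arrays in turn gave 3 to 27 positive and 19 to 64 negative interactions. Positive ones numbered 3, 4 and 8 without Fshr-CAM/Lhr-/- 1, 2 and 3, and 5 without WT/Lhr-/- 4. They numbered 11, 3 and 7 without Fshr-CAM/WT 2, 3 and 4, and 6, 13 and 12 without WT/WT 1, 2 and 3. Negative ones fell below 30 without Fshr-CAM/Lhr-/- 1 or 2 (19 each), WT/Lhr-/- 4 (20), Fshr-CAM/WT 3 or 4 (22 each), and WT/WT 1 (26) or 2 (28). Adam23, Fam83g, Ddit4, Tafa4, Dynlrb2 and Dnali1 passed in all 15 of these fits, Cyp11a1 and Dpep1 in 10, Inha and Gdnf in 6, and Pebp4 and Rbfox3 in 3. When cilia, oviduct, sperm and Y-linked genes were removed before the fit, 14 positive and 20 negative interactions passed of 11894 genes, all of them among those called above.

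**Figure D5:**
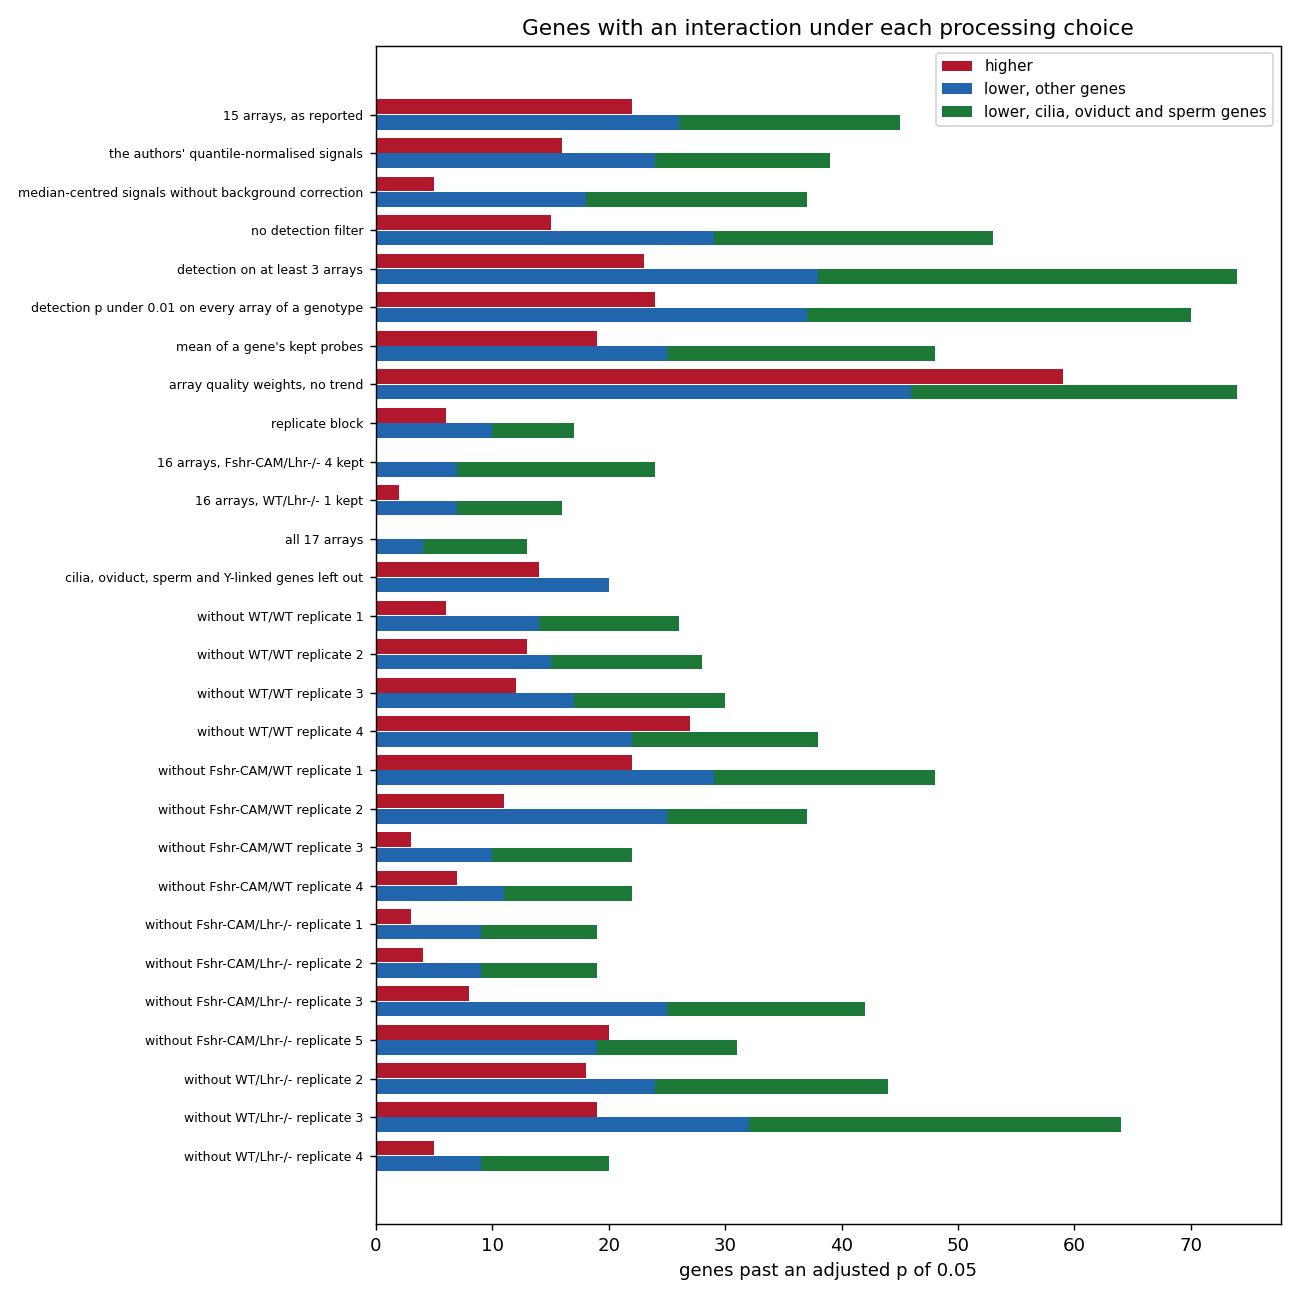
Number of genes with an adjusted p under 0.05 for the interaction under each processing choice, with positive interactions in the upper bar and negative ones in the lower bar of each pair. The 15 arrays gave 22 and 45, array quality weights gave 59 and 74, and keeping Fshr-CAM/Lhr-/- 4 gave 0 and 24.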

How the data were processed

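RNA of 17 ovary samples was measured on Illumina bead arrays, and groups were read from the sample titles. The deposited table of signals holds, per the file headers, an average intensity for each of 45281 probes without normalisation and a detection p-value for each deposited intensity. It was made by the authors with GenomeStudio 1.7.0, per the submitters' processing notes. A second deposited table of intensity values, quantile-normalised by the authors, served as an alternative.

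Intensities of 15 arrays were processed with limma (version 3.58.1, R version 4.3.3). Its function neqc subtracts background estimated from detection p-values, adds 16, normalises by quantiles and takes log2. Probes detected at p under 0.05 on at least 4 arrays with 1 gene symbol were kept, and the brightest probe stood for a gene. Gene names are those of the array annotation. A mean per genotype was fitted with lmFit, followed by eBayes with an intensity trend and Benjamini-Hochberg adjustment over 12074 genes. An interaction was called at an adjusted p under 0.05. Where all arrays of a group were at background, the fold is a bound, written as at least, against the lowest signals detected there. The fit was tested on simulated data.

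The arrays, gene lists and comparisons were chosen with earlier results of these data known. Named genes are drawn from the 12 largest called interactions in each direction, leaving out clone names and the genes set apart, up to 2 members of each list, a fixed set of ovary genes and the 4 largest among the genes set apart. Other named genes are marked. Alternatives were the authors' normalised signals, median centring, other detection filters, the mean of probes, array weights, a replicate block, keeping the arrays left out, leaving out each array, and, chosen after seeing the data, removing cilia, oviduct, sperm and Y-linked genes. Figures were drawn with matplotlib 3.10.9.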

Additional observations from a re-analysis of the deposited data

Results flagged for a closer look

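A difference between the Fshr-CAM effects without and with Lhr, the interaction on the log2 scale, passed its own test in limma (Benjamini-Hochberg adjusted p under 0.05) for 30 of the genes named by rule. The positive ones were Adam23 (3.17), Dpep1 (2.48), Ch25h (2.20), Cyp11a1 (1.76), Pkdcc (1.59), Enox1 (1.55), Rbfox3 (1.54), Alas1 (1.38), Gdpd5 (1.33), Fam83g (1.25), Smarca1 (1.23) and Il15ra (1.16). The negative ones were Pebp4 (−3.78), Kndc1 (−3.03), Spaca9 (−2.76), Tafa4 (−2.50), Gdnf (−2.44), Vtn (−2.33), Riiad1 (−2.29), Plac1 (−2.27), Lgr6 (−1.99), Lrrc18 (−1.74), Ccdc68 (−1.58), Oscp1 (−1.44), Ddit4 (−1.20) and Inha (−0.99). Among the cilia genes they were Dynlrb2 (−5.01), Dnali1 (−3.75), Rsph1 (−3.65) and 1700024G13Rik (−3.63).

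In 11 of 174 groups of 4 arrays, 1 array lay far from the others by Dixon's criterion, which chance meets in about 1 of 20. On Fshr-CAM/Lhr-/- 3, Dynlrb2 stood at 6.62, Rsph1 at 7.07 and Kndc1 at 6.13, each above the rest of its group. On Fshr-CAM/WT 1, Lgr6 stood at 8.29, Wnt6 at 7.32 and the class II histocompatibility gene H2-Eb1 at 4.81. On Fshr-CAM/WT 4, Star stood at 7.99 and Akr1c18 at 11.31, both below the rest of the group. On Fshr-CAM/WT 3, the Notch target Hey2 stood at 8.08. On WT/WT 2, Ch25h stood at 6.70 and Alas2, the heme synthesis enzyme of red blood cells, at 4.69. On the array titled WT/Lhr-/- 1, which was not fitted, the mean of 13 pituitary genes was 12.82, above the level on all other arrays.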

How the results depend on the processing

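The number of arrays limits these results. The 22 positive and 45 negative interactions became 5 and 37 with median-centred signals (the second within 1.5 times), 59 and 74 with array quality weights, and 14 and 20 without cilia, oviduct, sperm and Y-linked genes. Negative ones were 74 with detection on at least 3 arrays and 70 with the stricter detection filter. Keeping Fshr-CAM/Lhr-/- 4 gave 0 and 24, keeping WT/Lhr-/- 1 gave 2 and 16, and all 17 arrays gave 0 and 13. Genes that differed between Fshr-CAM/Lhr-/- and WT/Lhr-/- (286) were 636 with weights, 85 with Fshr-CAM/Lhr-/- 4, 165 with WT/Lhr-/- 1 and 88 with all 17 arrays. Genes that differed between Fshr-CAM/WT and WT/WT (43) were 25, 10 and 6 in those 3 fits. Leaving out each array in turn gave 3 to 27 positive and 19 to 64 negative interactions, 137 to 376 genes without Lhr and 19 to 48 with Lhr. Causes were not tested.

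Same-numbered arrays of different genotypes correlated at −0.512 to 0.328 in their deviations from group means, over 0.1 in 5 of 18 pairs. Differently numbered arrays correlated at −0.451 to 0.442 over 66 pairs. As each deviation is taken from a mean of 3 or 4 arrays, these values cannot decide whether the numbers pair the samples. With the replicate number as a block there were 6 positive and 17 negative interactions, and 119 genes without Lhr.

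Signs turned in a few cases. Cyp17a1 ranged from −0.11 without WT/WT replicate 2 to 1.23 without WT/WT replicate 4, and was −0.00536 without Fshr-CAM/WT replicate 1. With WT/Lhr-/- 1 kept, and with all 17 arrays, Fshr was 0.46 and 0.097, Gnrhr −0.79 and −1.02, Inha 0.29 and 0.33, Inhba 0.14 and 0.0013, Myocd 0.53 and 0.58, and Top2a 0.32 and 0.50. In each of these fits 65 of the 67 called genes kept the sign of their interaction, Inha not among them. Gata6, called but not named by rule, stood at 6.32 on WT/Lhr-/- 1, so its sign depends on that array too. Of the values of named genes under an alternative, 1241 kept their direction and side of the threshold, 311 lost the threshold, 13 gained it and 14 changed sign. The 1241 include values of named genes that did not pass in the main fit, so they do not measure how steady the calls were. All 311 losses fell on the 30 called genes.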
